A study of Mus musculus with 10 samples.

Results

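The genes described here are 51 nucleolar ribosome assembly factors, the proteins that build the small and large ribosomal subunits around the precursor ribosomal RNA. They were chosen by name from known function, with earlier results of these data known, and all 51 were found by symbol among the 52097 genes of the deposited table. RNA was measured by bulk sequencing in hematopoietic stem cells from mouse bone marrow, with about 5000 cells sorted per sample and a Smart-Seq V4 library made from each. Dhx16 encodes an RNA helicase of the DEAH-box family that acts in pre-mRNA splicing. The knockout group holds 5 samples titled Dhx16_CKO with the genotype label KO, and the control group holds 5 samples titled Dhx16_fl with the genotype label WT. The age of the mice and the driver of the deletion were not given in the sources used here, nor whether each sample came from its own animal, so p-values measure only the spread between these samples. The sort took Lin-Sca-1+c-Kit+CD48-CD150+ cells in both groups. The table names its library columns CKO7, CKO8, CKO9, CKO12 and CKO13 for the knockout and WT2 to WT6 for the control, and these names are used below.

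Ribosome production begins in the nucleolus, where RNA polymerase I copies the ribosomal DNA into a long precursor. Small nucleolar ribonucleoproteins modify and fold that precursor, and a large particle called the small-subunit processome forms at its front end while other factors assemble the large subunit behind it. Hematopoietic stem cells are known for a low rate of protein synthesis compared with the dividing progenitors that they produce, and many genes for assembly factors are known targets of the transcription factor Myc.

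Dhx16 itself was measured at 10.9, 10.6, 8.80, 7.10 and 10.1 FPKM in CKO7, CKO8, CKO9, CKO12 and CKO13, against 22.6, 20.5, 14.6, 15.5 and 14.3 FPKM in WT2, WT3, WT4, WT5 and WT6. FPKM values are normalised for the length of the transcript, so levels can be compared between genes. Every knockout library lay below every control library, with a mean of 9.49 ± 1.56 FPKM in the knockout and 17.5 ± 3.81 FPKM in the control (SD, n = 5 each). Dhx16 fell by 0.81 on the log2 scale (limma, adjusted p = 0.000638, and p = 0.00794 in a two-sided exact permutation test, the smallest that 5 against 5 libraries can give). The ratio of the means was 0.542, so Dhx16 RNA was reduced and not absent in the sorted knockout cells.

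The assembly factors were higher in Dhx16 knockout cells. Of the 51 factors, 48 passed a filter of at least 10 FPKM in at least 5 libraries, and 33 of these 48 (68.8%) were called higher at an adjusted p under 0.05 in limma on log2 (FPKM + 1). Across all 6913 genes tested the same rule called 21.1% higher and 31.6% lower. No factor was called lower, and no factor was lower at an unadjusted p under 0.05 either. The other 15 factors did not pass the test. The median difference of the 48 factors, knockout minus control, was 0.43 on the log2 scale, against -0.12 for all genes tested. There were 5 calls past a 2-fold change, and these were Imp4 (1.55), Npm1 (1.24), Emg1 (1.24), Nhp2 (1.17) and Ncl (1.15, all on the log2 scale). In bulk libraries such as these, a change in the number of cells of a kind and a change in RNA per cell cannot be told apart.

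**Figure D1:**
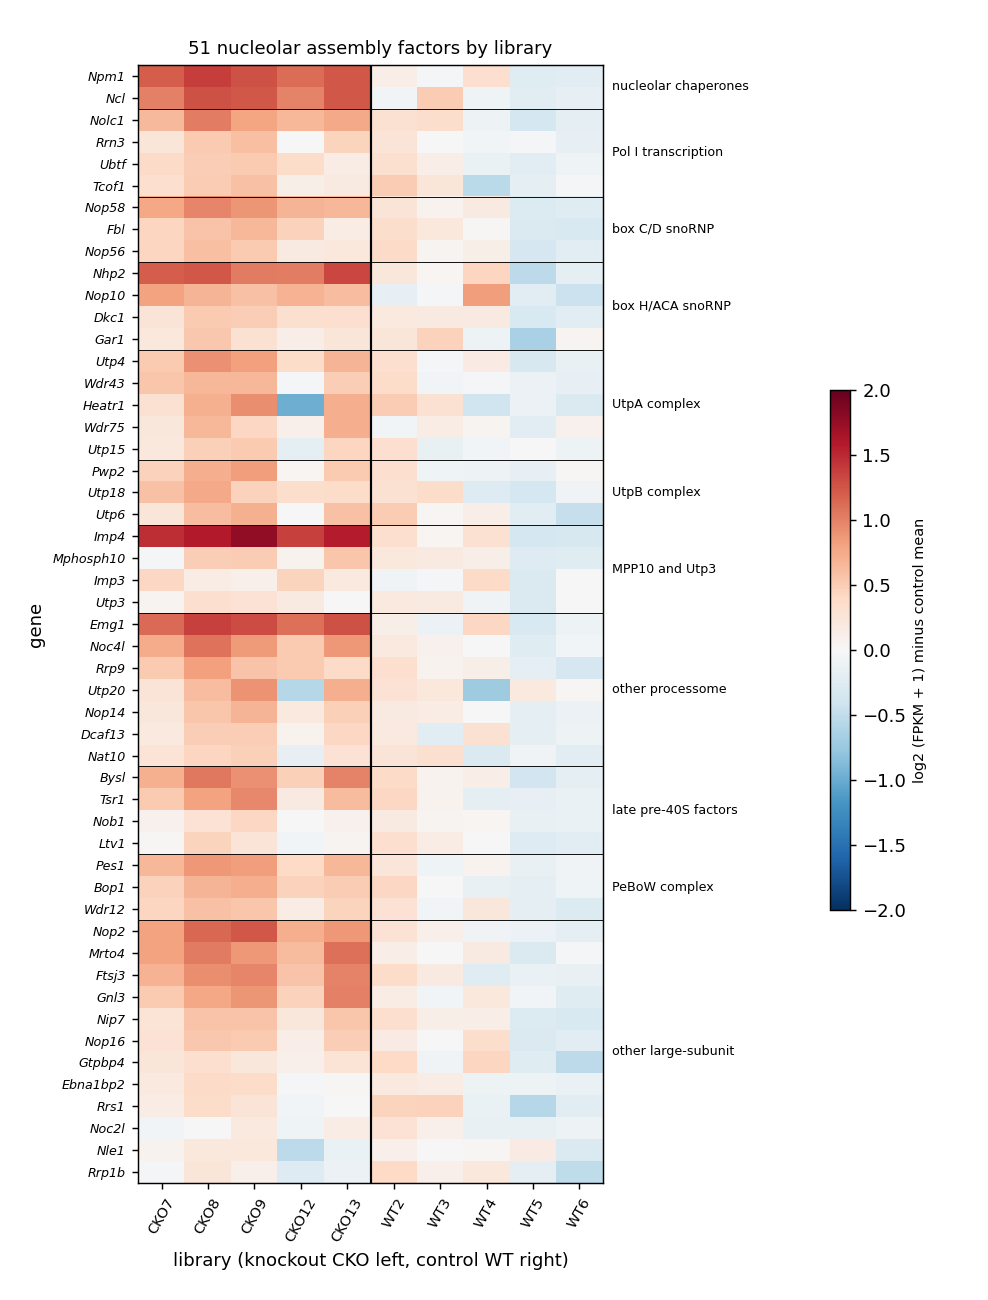
Level of each of the 51 assembly factors in each library, as log2 (FPKM + 1) minus the gene's control mean, with the 5 knockout libraries at the left and the 5 control libraries at the right and the factors grouped by role. Red is above and blue below the control mean, and Imp4, Npm1, Emg1, Nhp2 and Ncl are red in all 5 knockout libraries, while CKO12 is the palest knockout library.

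Counted over all 51 factors without any filter, the knockout mean exceeded the control mean in 49, and the exceptions were Nle1 and Rrp1b. In 19 of the 51 every knockout library lay above every control library, an arrangement that 12.9% of all genes tested showed, and in none did every knockout library lie below. The 3 factors under the filter were Heatr1, Utp6 and Utp20. Their differences with the filter lowered to 1 FPKM were 0.34 for Heatr1 (adjusted p = 0.432), 0.43 for Utp6 (adjusted p = 0.0784) and 0.39 for Utp20 (adjusted p = 0.260), all by limma, in a test that called 13.4% of genes higher. Bysl and Pwp2 reached 10 FPKM in only 2 and 4 control libraries. They passed the filter through the knockout libraries, so their higher calls are not free of it. Summed over the 51 factors, the level was 4624, 5264, 5057, 4276 and 4778 FPKM in CKO7, CKO8, CKO9, CKO12 and CKO13, against 3188, 2900, 3138, 2306 and 2404 FPKM in WT2, WT3, WT4, WT5 and WT6. The sum averaged 0.526 ± 0.0579% of all FPKM in the knockout and 0.337 ± 0.0549% in the control (SD, n = 5 each). Without Npm1 and Ncl, which held a large part of it, the sum was 3161 ± 272 FPKM in the knockout and 2080 ± 315 FPKM in the control.

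How many factors were called depended on the scale set between libraries. FPKM as deposited called 1460 genes higher and 2182 lower. Median-of-ratios factors turned this into 3053 higher and 816 lower, upper-quartile factors into 3560 and 582, and a scale matched to the authors' fold changes into 2991 and 819. Under median-of-ratios factors 48 factors were called higher, against 44.2% of all genes, under upper-quartile factors 48, against 51.5%, and under the authors' scale 46, against 43.3%. Scaling every library to an equal total called 19, against 15.3% of all genes. No factor was called lower under any of these scales. The gap between the median of the factors and the median of all genes was 0.55 on the log2 scale as reported and lay between 0.51 and 0.69 under every setting tried. The 19 factors called higher under all 5 scales were Bop1, Bysl, Emg1, Ftsj3, Gnl3, Imp4, Mrto4, Ncl, Nhp2, Noc4l, Nolc1, Nop10, Nop2, Nop58, Npm1, Pes1, Rrp9, Tsr1 and Utp4. In the authors' deposited table, made with DESeq2, all 51 factors were higher at an adjusted p under 0.05, with log2 fold changes of 0.47 to 1.72 (median 0.96). The same deposited table called 44.5% of the genes tested here higher and 17.1% of all genes with an adjusted p in it, and its median over the genes tested here was 0.29.

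**Figure D2:**
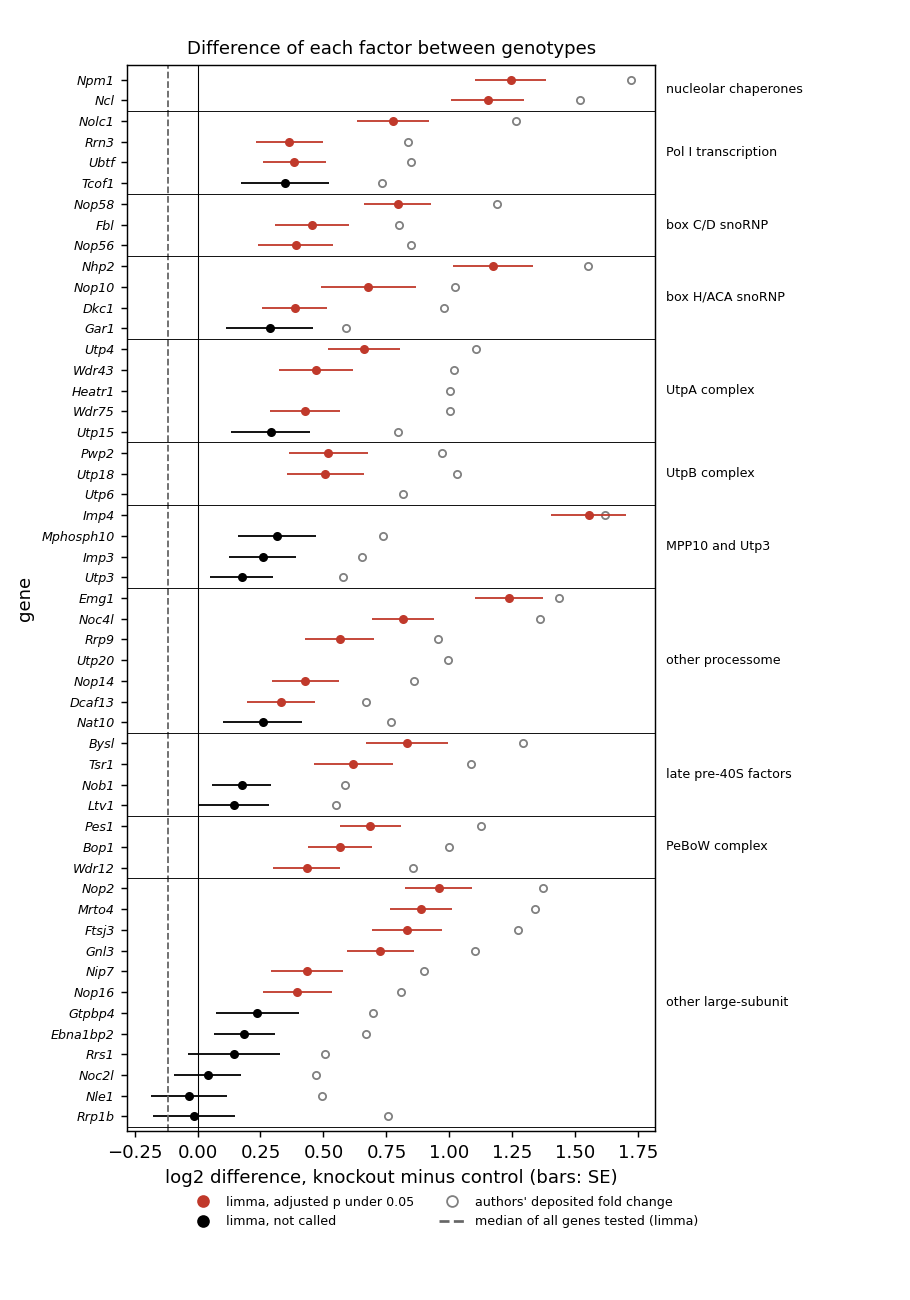
Difference of each factor between genotypes on the log2 scale, knockout minus control, by limma with its standard error (filled points, red where the adjusted p was under 0.05) and as the fold change in the authors' deposited table (open points), with factors grouped by role. The dashed line is the median of all genes tested, -0.12, and the filled points run from -0.03 for Nle1 to 1.55 for Imp4, while every open point lies above 0.

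Sequences around the starts of the factors are shown because 33 of them were higher together and because CACGTG, the hexamer bound by Myc and its partner Max and called the E-box, is a known element of this class of gene. Windows from 250 bases before to 50 bases after each annotated start were taken from RefSeq (build GRCm38.p6) for the 44 factors with an entry, and both strands were searched. CACGTG, whose reverse complement is the same letters, occurred in 11 of the 44 (25.0%), against 13.1% of 5303 genes tested with a window and 8.09% of all 27025 genes with one. The 12 sites of these 11 factors are given below with 12 bases on each side where the window allows, 5′ to 3′ on the strand of the gene, with the hexamer in capitals. Of these, 5 lie before the annotated start and 7 after it. The first base of the hexamer is 121 bases before the start in Imp4, 60 in Nop2, 20 in Utp18 and 215 and 48 in Rrn3, and it is base 3 of the transcript in Pes1, 16 in Utp4, 18 in Wdr43, 24 in Nle1, 25 in Tsr1, 29 in Ltv1 and 38 in Utp20.
Imp4, chr1:34439696-34439725, plus strand: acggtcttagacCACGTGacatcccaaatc
Nop2, chr6:125131811-125131840, plus strand: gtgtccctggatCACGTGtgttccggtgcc
Pes1, chr11:3963965-3963994, plus strand: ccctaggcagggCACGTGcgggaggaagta
Utp4, chr8:106893643-106893672, plus strand: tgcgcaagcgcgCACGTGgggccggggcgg
Tsr1, chr11:74898092-74898121, plus strand: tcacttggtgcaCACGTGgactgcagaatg
Utp18, chr11:93885769-93885798, minus strand: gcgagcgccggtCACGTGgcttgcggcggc
Wdr43, chr17:71616220-71616249, plus strand: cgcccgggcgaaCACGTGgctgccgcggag
Rrn3, distal, chr16:13780472-13780501, plus strand: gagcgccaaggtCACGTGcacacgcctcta
Rrn3, proximal, chr16:13780639-13780668, plus strand: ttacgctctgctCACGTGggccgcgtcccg
Ltv1, chr10:13193092-13193121, minus strand: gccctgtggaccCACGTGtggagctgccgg
Nle1, chr11:82908355-82908384, minus strand: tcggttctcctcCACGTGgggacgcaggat
Utp20, chr10:88826765-88826789, minus strand: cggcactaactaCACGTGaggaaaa

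Of the 10 tested factors with an E-box, 8 were called higher, with a median difference of 0.56, and of the 32 tested factors with a window but no E-box, 21 were called higher, with a median difference of 0.43 (both on the log2 scale). Imp4, with the largest difference of the 48 tested, and Nle1, with the lowest, both carried the hexamer. After the values were seen, another pair of motifs was counted in the same way. CACGCG, a variant of the E-box, occurred in 12 of the 44 factors (27.3%), against 20.3% of genes tested, and CCGGAAGT, a sequence bound by ETS-family factors, in 13 (29.5%), against 11.7%. Both the E-box and the ETS sequence were present in 4 factors, and 16 held none of the 3 motifs. The tested factors with CACGCG had a median difference of 0.42 and those with the ETS sequence 0.40, against 0.45 for those without it in both cases. Among the 12 tested factors with each motif, 8 were called higher for CACGCG and 7 for the ETS sequence. Among the 30 without each, 21 and 22 were called higher in the same order. A match is a description of the letters and does not show that a site is bound in these cells.

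The 250 bases before the start of Imp4 and of Emg1, which had the largest differences among the processome factors, are shown whole because they differ in which motif they hold and in base composition. Imp4 holds a single E-box and Emg1 holds a pair of ETS sequences, each in capitals, and the share of G and C is 53.6% for Imp4 and 72.8% for Emg1.
Imp4, chr1:34439579-34439828, plus strand: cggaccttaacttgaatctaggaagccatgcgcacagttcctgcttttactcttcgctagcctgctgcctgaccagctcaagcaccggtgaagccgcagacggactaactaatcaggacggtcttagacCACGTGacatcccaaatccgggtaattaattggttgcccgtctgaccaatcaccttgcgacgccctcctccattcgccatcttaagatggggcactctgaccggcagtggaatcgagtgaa
Emg1, chr6:124712179-124712428, minus strand: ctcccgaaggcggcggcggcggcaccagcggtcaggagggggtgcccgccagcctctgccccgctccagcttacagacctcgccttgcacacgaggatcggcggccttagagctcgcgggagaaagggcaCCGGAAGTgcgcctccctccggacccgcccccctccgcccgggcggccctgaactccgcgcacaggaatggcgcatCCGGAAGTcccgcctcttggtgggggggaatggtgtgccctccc

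The nucleolar chaperones Npm1 and Ncl were the most and the third most abundant of the 51 factors, and both were called higher. Npm1, nucleophosmin, a chaperone of the granular outer part of the nucleolus, stood at 1280.0, 1444, 1344, 1203 and 1315 FPKM in CKO7, CKO8, CKO9, CKO12 and CKO13, against 611, 545, 704, 468 and 479 FPKM in WT2 to WT6. The lowest knockout library was well above the highest control library, and the difference was 1.24 ± 0.14 (log2, SE, limma adjusted p = 9.60e-06). Ncl, nucleolin, which binds the precursor RNA and ribosomal chromatin, stood at 291, 347, 341, 286 and 342 FPKM in the knockout libraries in the same order, against 138, 205, 134, 124 and 129 FPKM in the control libraries. Again the groups did not overlap, WT3 was high among the controls, and the difference was 1.15 ± 0.14 (log2, SE, limma adjusted p = 1.91e-05). The level of Npm1 over Ncl differed by 0.09 on the log2 scale between genotypes, which was within the spread between libraries (exact permutation p = 0.667).

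Of the 4 factors of RNA polymerase I transcription and its surroundings, 3 were called higher. Nolc1, a nucleolar phosphoprotein that chaperones small nucleolar ribonucleoproteins and binds the polymerase, led them at 65.3, 84.7, 72.3, 65.6 and 70.2 FPKM in CKO7, CKO8, CKO9, CKO12 and CKO13, against 50.9, 52.6, 38.3, 32.2 and 35.8 FPKM in WT2 to WT6. All 5 knockout libraries exceeded all 5 control libraries, and the difference was 0.78 ± 0.14 (log2, SE, limma adjusted p = 0.000377). Rrn3, the initiation factor that makes the polymerase competent, averaged 29.4 ± 4.87 FPKM in the knockout and 22.5 ± 2.60 FPKM in the control (SD, n = 5 each), and Ubtf, which keeps ribosomal DNA open, averaged 42.3 ± 4.18 and 32.4 ± 5.21 FPKM in the same order. Their differences were 0.36 for Rrn3 and 0.38 for Ubtf, with overlapping groups, and the call was lost without any 1 of 6 libraries for Rrn3 and without 1 library for Ubtf. Tcof1, treacle, the partner that tethers the polymerase machinery in the nucleolus, averaged 22.9 ± 3.32 FPKM in the knockout and 18.2 ± 5.24 FPKM in the control and did not pass the test (0.35, limma adjusted p = 0.104).

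The box C/D ribonucleoprotein carries the methyltransferase that adds methyl groups to ribose in ribosomal RNA, and all 3 of its listed subunits were called higher. Nop58, a core scaffold, stood at 217, 251.7, 237, 205 and 202 FPKM in CKO7, CKO8, CKO9, CKO12 and CKO13, against 153, 134, 144, 105 and 108 FPKM in WT2 to WT6. The genotypes did not overlap, and the difference was 0.80 ± 0.13 (log2, SE, limma adjusted p = 0.000185). Nop56, the paired scaffold and the second most abundant of all 51 factors, stood at 290.4, 328, 311, 246 and 249.7 FPKM in the knockout libraries and 280.4, 224, 234, 170.5 and 187 FPKM in the control libraries in the same order. WT2 was higher than CKO12 and CKO13, so the groups overlapped, and the smaller difference of 0.39 ± 0.15 lost its call without any 1 of 6 libraries. Fbl, fibrillarin, the methyltransferase itself, averaged 103 ± 13.5 FPKM in the knockout and 75.5 ± 15.5 FPKM in the control (0.46, limma adjusted p = 0.0166).

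The box H/ACA ribonucleoprotein converts uridine to pseudouridine in ribosomal RNA and also stabilises telomerase RNA. Of its 4 subunits, 3 were called higher. Nhp2, an RNA-binding core protein, stood at 199.7, 205, 176, 175 and 219 FPKM in CKO7, CKO8, CKO9, CKO12 and CKO13, against 100.1, 88.3, 116, 59.1 and 75.6 FPKM in WT2 to WT6. The knockout libraries all lay above the control libraries, and the difference was 1.17 ± 0.16 (log2, SE, limma adjusted p = 3.45e-05). Nop10, the small protein that binds the catalytic subunit, averaged 133 ± 8.08 FPKM in the knockout and 87.4 ± 35.2 FPKM in the control, with WT4 alone at 149 FPKM above every knockout library. Dkc1, dyskerin, the pseudouridine synthase, averaged 140.2 ± 11.5 FPKM in the knockout and 108 ± 18.1 FPKM in the control (0.39, limma adjusted p = 0.0211), a call lost without any 1 of 3 libraries. Gar1, the fourth subunit, averaged 30.9 ± 3.64 and 25.9 ± 7.24 FPKM in the same order and did not pass the test (0.29, limma adjusted p = 0.177).

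The small-subunit processome begins with the UtpA and UtpB complexes, which bind the front end of the precursor as it is copied. In UtpA, 3 of 4 tested subunits were called higher, and Utp4 led at 42.2, 55.2, 51.9, 37.5 and 47.1 FPKM in CKO7, CKO8, CKO9, CKO12 and CKO13, against 36.7, 28.2, 32.4, 23.0 and 26.1 FPKM in WT2 to WT6. CKO12 and WT2 lay close to each other without crossing, and the difference was 0.66 ± 0.14 (log2, SE, limma adjusted p = 0.00127). Wdr43 (0.47) and Wdr75 (0.43) were called with overlapping groups, the call of Wdr75 being lost without either of 2 libraries. Utp15 was not called (0.29, limma adjusted p = 0.128), and Heatr1 was under the filter at 11.3 ± 4.87 FPKM in the knockout and 8.13 ± 2.52 FPKM in the control. Within UtpB, Pwp2 stood at 15.7, 19.1, 20.5, 11.5 and 16.4 FPKM in the knockout libraries in that order and 14.3, 10.4, 10.3, 9.73 and 11.3 FPKM in the control libraries. CKO12 fell below WT2, and the difference was 0.52 ± 0.16 (log2, SE, limma adjusted p = 0.0122). Utp18 was called as well (0.51), and Utp6 was under the filter at 10.7 ± 2.26 FPKM in the knockout and 7.74 ± 2.26 FPKM in the control.

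The MPP10 complex joins the U3 small nucleolar RNA to the precursor, and Imp4 was the subunit called higher on FPKM as deposited. Imp4, which pairs U3 with the precursor, stood at 135, 146, 166, 126 and 144 FPKM in CKO7, CKO8, CKO9, CKO12 and CKO13, against 60.7, 49.4, 59.3, 37.2 and 38.3 FPKM in WT2 to WT6. The lowest knockout library lay well above the highest control library, and the difference of 1.55 ± 0.15 (log2, SE, limma adjusted p = 3.15e-06) was the largest of the 48 tested. By the authors' deposited log2 fold changes Npm1 (1.72) lay above Imp4 (1.62). Its partners Imp3 (0.26), Mphosph10 (0.31) and the associated Utp3 (0.17) were not called on FPKM as deposited or with equal totals. They were called higher under median-of-ratios factors (0.64, 0.68 and 0.55 for Imp3, Mphosph10 and Utp3), upper-quartile factors and the authors' scale. Mphosph10, the scaffold of the complex, was the factor just outside the threshold (adjusted p = 0.0972), at 16.3, 24.0, 24.2, 17.6 and 25.2 FPKM in the knockout libraries in that order and 19.6, 19.1, 18.3, 13.9 and 14.0 FPKM in the control libraries. CKO7 and CKO12 lay among the controls. An antisense gene, Gm28306, overlaps Imp4 on the opposite strand and was listed at 4.16 ± 2.34 FPKM in the knockout and 1.17 ± 0.283 FPKM in the control. Since the strand setting of the counting was not given in the sources used here, reads of overlapping opposite genes cannot be told apart.

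Among the 6 other processome factors tested, 5 were called higher. Emg1, the methyltransferase that starts a hypermodified pseudouridine in the small-subunit RNA, stood at 208, 246, 236, 205 and 229.7 FPKM in CKO7, CKO8, CKO9, CKO12 and CKO13, against 103, 86.9, 126, 76.2 and 87.7 FPKM in WT2 to WT6. No control library came near the knockout range, and the difference was 1.24 ± 0.14 (log2, SE, limma adjusted p = 8.04e-06). Lpcat3, which overlaps Emg1 on the opposite strand, was at 56.2 ± 4.24 FPKM in the knockout and 47.7 ± 4.71 FPKM in the control and was not called (0.23, limma adjusted p = 0.0774). Noc4l (0.82) and its binding partner Nop14 (0.43), and Rrp9 (0.56), a U3-specific protein, were called with groups that did not overlap. Dcaf13, the counterpart of yeast Sof1, was the factor just inside the threshold (0.33, limma adjusted p = 0.0485), at 41.8, 51.2, 51.1, 38.0 and 48.7 FPKM in the knockout libraries in that order and 41.6, 31.0, 45.0, 31.9 and 33.6 FPKM in the control libraries. WT4 exceeded CKO7 and CKO12, WT2 exceeded CKO12, and the call of Dcaf13 was lost when any 1 of 7 libraries was left out. Nat10, which acetylates cytidine in the small-subunit RNA, was not called (0.26, limma adjusted p = 0.177), and Utp20 was under the filter at 6.15 ± 2.41 FPKM in the knockout and 4.31 ± 1.25 FPKM in the control.

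Of the 4 factors that act late on the small subunit, on its way out of the nucleus and in the cytoplasm, Bysl and Tsr1 were called higher and Ltv1 and Nob1 were not. Bysl, bystin, stood at 16.2, 20.8, 18.7, 13.7 and 19.9 FPKM in CKO7, CKO8, CKO9, CKO12 and CKO13, against 12.7, 9.97, 10.4, 7.06 and 8.13 FPKM in WT2 to WT6. Its groups did not overlap and its difference was 0.83 ± 0.16 (log2, SE, limma adjusted p = 0.000576). This call is not free of the filter, which Bysl passed through its knockout libraries. Bysl lies opposite the far more abundant Ccnd3, which was at 299 ± 71.5 FPKM in the knockout and 292 ± 18.0 FPKM in the control. Tsr1, a GTPase-like protein that blocks early joining of the subunits, averaged 32.8 ± 6.72 FPKM in the knockout and 20.9 ± 4.06 FPKM in the control (0.62, limma adjusted p = 0.00394). Nob1, the nuclease that makes the last cut of the small-subunit RNA, averaged 54.0 ± 6.55 FPKM in the knockout and 47.7 ± 4.84 FPKM in the control (0.17, limma adjusted p = 0.217).

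In the assembly of the large subunit, the PeBoW complex of Pes1, Bop1 and Wdr12 was called higher in all 3 of its parts. Pes1, pescadillo, led at 57.6, 66.5, 64.9, 47.9 and 57.7 FPKM in CKO7, CKO8, CKO9, CKO12 and CKO13, against 42.6, 33.9, 37.7, 32.3 and 34.3 FPKM in WT2 to WT6. Every knockout library was above every control library, and the difference was 0.69 ± 0.12 (log2, SE, limma adjusted p = 0.000268). Bop1 averaged 59.6 ± 5.36 FPKM in the knockout and 40.3 ± 7.47 FPKM in the control, also without overlap, and Wdr12 averaged 45.6 ± 5.32 and 33.8 ± 5.96 FPKM in the same order, with overlap. Their differences were 0.57 for Bop1 and 0.43 for Wdr12.

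The 12 other large-subunit factors split evenly, with 6 called higher and 6 not called. Nop2, a methyltransferase of the large-subunit RNA, led at 70.7, 90.5, 96.1, 66.8 and 73.6 FPKM in CKO7, CKO8, CKO9, CKO12 and CKO13, against 49.4, 42.8, 38.1, 36.9 and 34.7 FPKM in WT2 to WT6. These ranges were far apart, and the difference was 0.96 ± 0.13 (log2, SE, limma adjusted p = 4.18e-05). Mrto4, which holds the place of the stalk protein (0.89), Ftsj3, another RNA methyltransferase (0.83), and Gnl3, nucleostemin, a GTPase known from stem cells (0.73), were also called without overlap between groups. Nip7 (0.44) and Nop16 (0.40) were called with overlap, and their calls were lost without any 1 of 2 libraries for Nip7 and 5 for Nop16. The factors with the smallest differences of the 48 tested belonged here. Rrp1b, a nucleolar scaffold, stood at 23.7, 28.9, 26.1, 20.2 and 22.3 FPKM in the knockout libraries in that order and 32.4, 26.3, 28.1, 20.98 and 16.8 FPKM in the control libraries. Nle1, whose yeast counterpart is released from the particle by a motor ATPase, stood at 26.3, 28.8, 29.0, 16.9 and 22.6 FPKM in the knockout libraries and 26.6, 25.0, 25.3, 27.8 and 20.2 FPKM in the control libraries. Noc2l, a transport factor of early particles that is also known to bind p53, stood at 11.2, 11.7, 13.6, 10.9 and 13.0 FPKM in the knockout libraries and 14.5, 12.7, 10.5, 10.5 and 10.8 FPKM in the control libraries. Within each of these 3 genes the libraries of both genotypes were interleaved, with differences of -0.01 for Rrp1b, -0.03 for Nle1 and 0.04 for Noc2l on FPKM as deposited. Under median-of-ratios factors the differences were 0.36, 0.34 and 0.40 in the same order, and all 3 were called higher. The authors' deposited log2 fold changes were 0.76 for Rrp1b, 0.49 for Nle1 and 0.47 for Noc2l. By those fold changes Rrs1 (0.50), and not Rrp1b, came next above Noc2l and Nle1. On FPKM as deposited, Ebna1bp2, Gtpbp4 and Rrs1 were not called either, at 0.19, 0.24 and 0.14 on the log2 scale.

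**Figure D3:**
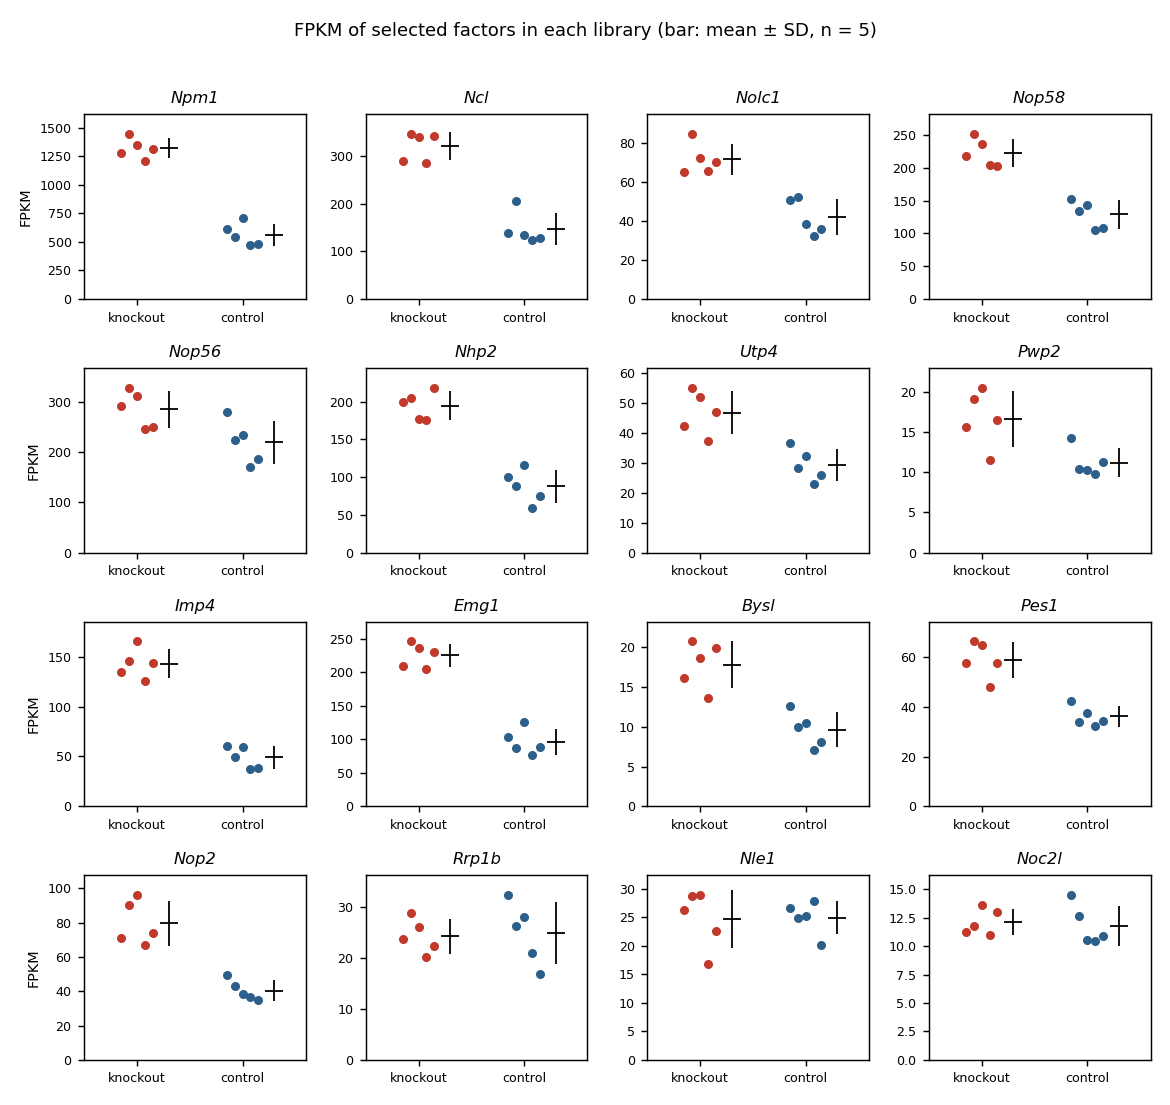
FPKM of 16 of the factors in each library, with 5 knockout libraries (red, left) and 5 control libraries (blue, right) and a bar for the mean and SD. Imp4, Npm1, Emg1, Nhp2, Ncl and Nop2 show separate groups, Nop56 and Pwp2 overlap, and the libraries of both genotypes are interleaved for Rrp1b, Nle1 and Noc2l.

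Ratios between factors cancel any scale set between libraries. The log2 ratio was therefore taken for 32 pairs of factors, the pairs within the complexes above, with Utp3 counted with the MPP10 complex, and the pair of Npm1 and Ncl. They were compared by a two-sided exact permutation test with Benjamini-Hochberg adjustment over the 32, a comparison chosen after the data had been seen. In 9 pairs the ratio did not overlap between genotypes (exact permutation p = 0.00794, the smallest possible, adjusted p = 0.0282), and 11 pairs had an unadjusted p under 0.05. These 9 are 28.1% of the 32 pairs, against 30.0% of all pairs among the 51 factors and 38.7% of all pairs of tested genes without a 0 in any library, so the number of pairs apart was no larger than that among all genes. Imp4 gained on each of its partners, by 1.39 over Utp3, 1.31 over Imp3 and 1.24 over Mphosph10 on the log2 scale. The authors' deposited log2 fold changes were 1.62 for Imp4, 0.58 for Utp3, 0.65 for Imp3 and 0.74 for Mphosph10. By those fold changes Imp4 also gained on each partner, but by less than on FPKM. The log2 ratio of Imp4 over Imp3 was 0.01, 0.39, 0.63, -0.11 and 0.32 in CKO7, CKO8, CKO9, CKO12 and CKO13, against -0.66, -0.99, -1.14, -1.14 and -1.39 in WT2 to WT6. Imp4 was below the level of Imp3 in every control library and in CKO12, and above it in the other 4 knockout libraries.

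Nhp2 gained 0.88 over Gar1 and 0.79 over Dkc1, and Nop58 gained 0.41 over Nop56 and 0.34 over Fbl. The log2 ratio of Nop58 over Nop56 was -0.35 ± 0.06 in the knockout and -0.76 ± 0.07 in the control (SD, n = 5 each). Utp4 gained 0.37 over Utp15, and Pes1 gained 0.26 over Wdr12. None of the 3 pairs within UtpB passed, with differences from 0.03 to 0.08, and neither did Bop1 with either of its partners. Because several of these pairs share a gene, the 9 pairs are not independent of each other. Genes of small nucleolar RNAs lie within Nop56 and Nop58, and 7 of the 51 factors overlap such a gene.

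**Figure D4:**
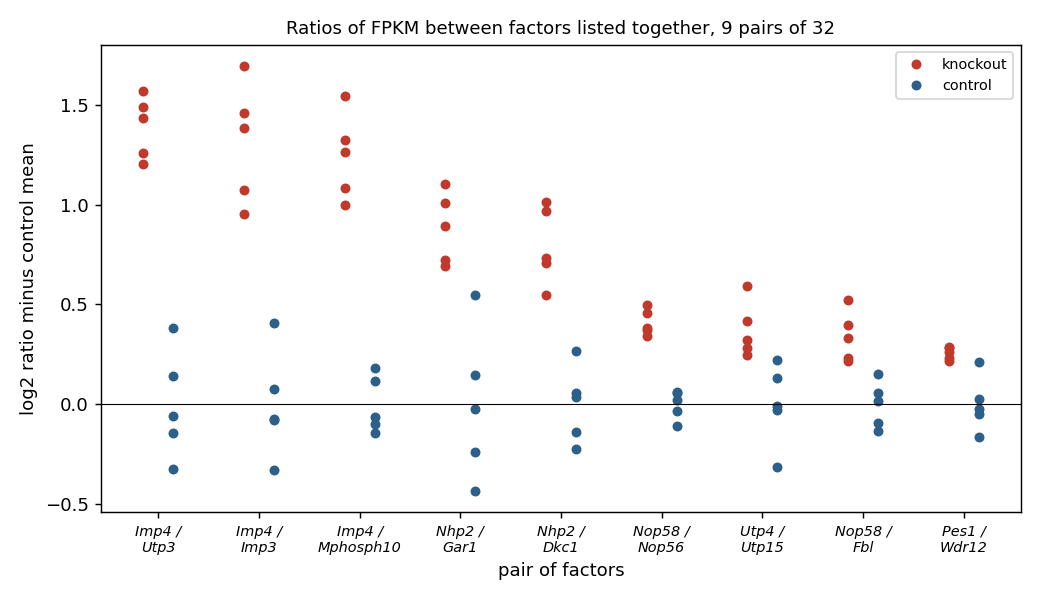
Log2 ratio of FPKM between factors listed together in each library, minus the control mean of that ratio, for the 9 of 32 pairs whose genotypes did not overlap (knockout red at the left of each pair, control blue at the right). The 3 pairs with Imp4 lie highest, and Pes1 over Wdr12 has the smallest gap.

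Some of the factors share their locus with another gene. Of the 51 factors, 29 overlap no other annotated gene and 22 overlap at least 1, 20 of them on the opposite strand (GENCODE M21). The partners included Idh3b at Nop56 (156 ± 6.43 FPKM in the knockout and 142 ± 28.2 FPKM in the control) and Lgals8 at Heatr1 (23.0 ± 2.51 and 39.2 ± 5.54 FPKM in the same order). Rmnd5b at Nhp2 was at 35.9 ± 1.97 FPKM in the knockout and 33.9 ± 4.30 FPKM in the control, and Mroh1 at Bop1 was lower in the knockout, at 9.11 ± 2.25 FPKM against 18.2 ± 4.56 FPKM in the control. What such partners contribute to the values of the factors was not tested.

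The difference of each factor was set beside its level and its length. Length here is the merged length of all annotated exons of a gene, which can exceed that of any single transcript. Over the 48 tested factors, Spearman's rho between the difference and this length was 0.04, against -0.18 over all 6913 genes tested. Between the difference and the mean level it was 0.51. That mean covers all 10 libraries, so a factor that rises gains level by construction, and the pseudocount shrinks the differences of low genes. No rho with level was taken over all genes, so 0.51 is not shown to be particular to the factors. These rho values are descriptions across genes that share the same 10 libraries. Trends with this exon length also varied among libraries: CKO12 and WT4 favoured genes with short exon length most, with slopes of -0.115 and -0.192 (log2 per doubling of length, each against the other libraries of its own group). Without CKO12 and WT4, 36 of the 48 factors were called higher, and the background was 24.7%. With the length trend removed from every library, 35 were called, against 22.1% of all genes.

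Within each genotype the factors moved together from library to library. In CKO8, 49 of the 51 lay above the mean of the other 4 libraries of the group, in CKO9 44, in CKO13 28, in CKO7 12 and in CKO12 4. Among the controls, 47 lay above that mean in WT2, 38 in WT3, 28 in WT4, 5 in WT6 and 2 in WT5. The share of all genes tested that lay above the mean of the other libraries ran the same way in part, at 67.0%, 75.9%, 35.3%, 43.0% and 37.9% in CKO8, CKO9, CKO13, CKO7 and CKO12, and 79.5%, 37.2%, 61.2%, 24.0% and 35.1% in WT2, WT3, WT4, WT6 and WT5. The sum of the proliferation genes was 1275, 1223, 1142, 1053 and 1009 FPKM in CKO8, CKO7, CKO9, CKO13 and CKO12, and 550.1, 499.6, 493, 486 and 353 FPKM in WT2, WT4, WT6, WT3 and WT5. Its ends were those of the factors in both groups. Between the ends, CKO7, WT4 and WT6 ranked higher in it than by the count of factors, and CKO9, CKO13 and WT3 lower.

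Cell type markers moved with genotype beside the factors. Proliferation genes summed to 1009 to 1275 FPKM in the knockout and 353 to 550.1 FPKM in the control, with 7 of 7 tested called higher. Erythroid genes without globins summed to 753 to 1177 FPKM in the knockout and 119.8 to 397 FPKM in the control, with 8 of 8 called higher, and the 4 globins were called higher as well (1214 to 8151 FPKM against 216 to 2863 FPKM). Klf1 and Car1 reached 10 FPKM in 4 control libraries, and Ermap, Rhd and Rhag in 2. Without the knockout libraries these genes would not have passed the filter, so their calls are not free of it. Of the 8 sort and stem cell genes, 7 were tested and 5 were called lower, among them Slamf1, which encodes CD150, at 10.9 ± 2.20 FPKM in the knockout and 21.5 ± 4.65 FPKM in the control. Macrophage genes summed to 10.6 to 27.5 FPKM in the knockout and 117 to 272 FPKM in the control, with 3 of 3 tested lower, and all 5 megakaryocyte genes tested were lower (694.5 to 1368 FPKM against 1392 to 2146 FPKM). C1qa, C1qc and Clec1b reached 10 FPKM in 0 knockout libraries, C1qb in 1 and Slamf1 in 3. These genes passed the filter through the control libraries, so their lower calls are not free of it either. Granulocyte genes (8348 to 40840 FPKM in the knockout and 9623 to 74170 FPKM in the control) and bone matrix genes (4549 to 47780 FPKM and 3180 to 65870 FPKM in the same order) varied widely, with none called. The 7 lineage antigens excluded by the sort summed to 22.6 to 82.2 FPKM in the knockout and 48.6 to 208 FPKM in the control, and Cd3e, Cd8a and Ms4a1 stayed under 1 FPKM in every library. Ly6g made up most of the sum, at 15.0 to 66.0 FPKM in the knockout and 37.9 to 170 FPKM in the control. Itgam ran from 3.58 to 13.5 FPKM in the knockout and 7.40 to 33.2 FPKM in the control. No defining marker of these lists was at 0 in all libraries.

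Between genotypes the erythroid sum and the sum of the factors were both apart. Within each genotype the erythroid sum ordered the libraries only in part like the count of factors above the other libraries' mean. CKO7 had the highest erythroid sum of the knockout libraries with 12 such factors, and CKO9 had the lowest with 44. WT6 had the highest among the controls with 5. Other libraries went the same way on both. CKO8, at 1041 FPKM, came next below CKO7 in erythroid sum with 49 factors. WT5 had the lowest erythroid sum of the controls, 119.8 FPKM, with 2 factors. With scores of the bone matrix and granulocyte genes as covariates, 19 factors were called higher, against 13.8% of all genes, and none lower. The part of proliferating, erythroid or other cells in the difference of the factors was not tested.

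**Figure D5:**
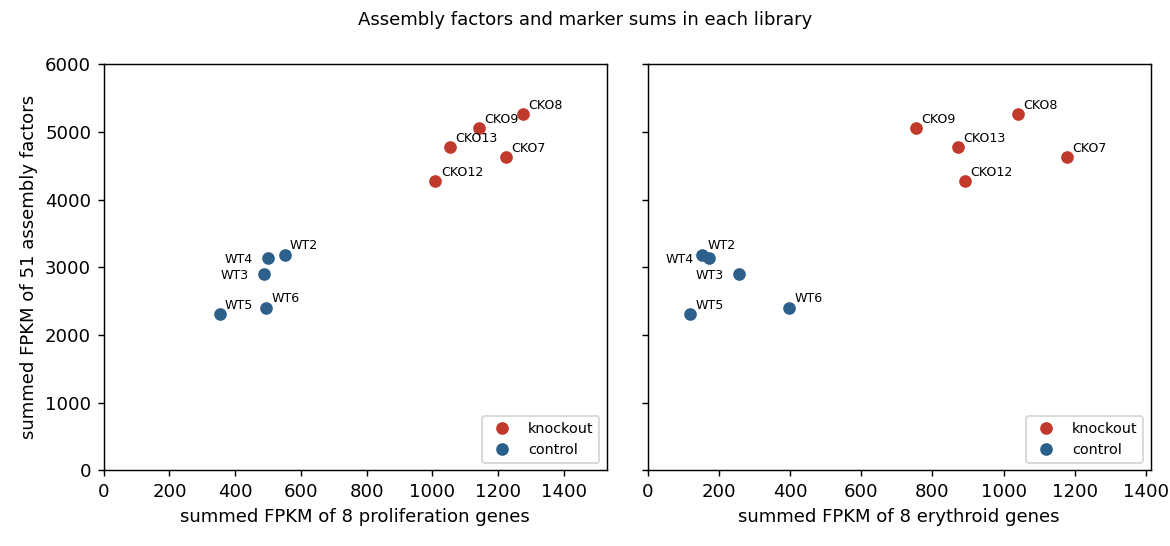
Summed FPKM of the 51 assembly factors in each library against the summed FPKM of 8 proliferation genes (left) and of 8 erythroid genes without globins (right), with knockout libraries in red and control libraries in blue. The genotypes are apart on all 3 sums, with the factors at 4276 to 5264 FPKM in the knockout and 2306 to 3188 FPKM in the control.

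Assembly factors outside the 51 gave a mixed picture with the same leaning. Of 99 further factors listed, 98 were found and 85 tested, of which 40 were called higher, 3 lower and 42 not called, with a median difference of 0.32 on the log2 scale. By group these were 13 higher and 1 lower of 31 small-subunit factors, 20 higher and 2 lower of 41 large-subunit factors, and 7 higher and none lower of 13 subunits and helpers of the RNA exosome, the complex that trims precursor ends. Across all genes tested, 21.1% were called higher and 31.6% lower. With libraries scaled to equal totals the calls among the further factors were 24 higher and 5 lower, with median-of-ratios factors 75 and 0, with upper-quartile factors 78 and 0, and on the authors' scale 76 and 1, against 15.3%, 44.2%, 51.5% and 43.3% of all genes called higher in the same order. The largest rises were Rrp8 (1.44), a silencing factor of ribosomal DNA that overlaps Ilk, Lyar (0.88) and Ppan (0.88). Rrp8 averaged 45.7 ± 9.33 FPKM in the knockout and 16.2 ± 3.21 FPKM in the control.

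The 3 factors called lower were Sbds, Zfp622 and Riok3. Sbds, which removes the factor Eif6 from the large subunit, stood at 33.6, 34.2, 29.0, 34.0 and 25.9 FPKM in CKO7, CKO8, CKO9, CKO12 and CKO13, against 48.9, 45.0, 56.5, 50.95 and 49.1 FPKM in WT2 to WT6. The groups did not overlap and Sbds fell by 0.66 (log2, limma adjusted p = 0.000237). Zfp622, whose yeast counterpart Rei1 works on the same cytoplasmic particle, averaged 16.1 ± 4.11 FPKM in the knockout and 29.2 ± 7.23 FPKM in the control and fell by 0.82 (log2, limma adjusted p = 0.00155). Riok3, a kinase of late small-subunit particles, averaged 31.7 ± 3.08 FPKM in the knockout and 42.1 ± 4.40 FPKM in the control and fell by 0.40 (log2, limma adjusted p = 0.00787). None of the 3 was called lower under all 5 scales.

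Among regulators tied to ribosome production, Myc was at 217, 152, 159, 209 and 95.9 FPKM in CKO7, CKO8, CKO9, CKO12 and CKO13, against 269.7, 208, 199, 265 and 226 FPKM in WT2 to WT6. CKO7 and CKO12 lay among the controls, and Myc fell by 0.53 (log2, limma adjusted p = 0.0311), a call lost under median-of-ratios (-0.15), upper-quartile (-0.04) and authors' scaling (-0.14) and without any 1 of CKO8, CKO9, CKO13, WT2, WT5 or WT6. Mycn was called lower too (-0.61), with its call lost under the same 3 scales, and Max, the partner of Myc, fell by 1.08 on the log2 scale (limma adjusted p = 0.00178), with its call held under all 5 scales. Trp53, the gene of p53, which is known to be stabilised when ribosome assembly is disturbed, averaged 396 ± 39.2 FPKM in the knockout and 200.5 ± 22.0 FPKM in the control, without overlap (0.98, limma adjusted p = 2.08e-05). Of 9 p53 targets listed, 4 passed the filter, and 2 of these were called higher and none lower, against 21.1% and 31.6% of all genes tested. Bax, a promoter of cell death, averaged 137 ± 16.1 FPKM in the knockout and 69.6 ± 9.19 FPKM in the control, without overlap (0.97, limma adjusted p = 2.15e-05), and was called under every scale. Ccng1 was called at 0.34 (limma adjusted p = 0.0257), a call lost with equal totals (0.20) and without any 1 of CKO8, CKO9 or WT6. Mdm2 (-0.24, limma adjusted p = 0.102) and Cdkn1a (-0.01, limma adjusted p = 0.973) were not called. Of the 5 targets under the filter, Zmat3, Phlda3 and Sesn2 had every knockout library above every control library. Among genes that passed the filter, 12.9% showed this arrangement, and the share among genes under it was not counted. Zmat3 ran from 2.27 to 5.01 FPKM in the knockout and 0.80 to 1.06 FPKM in the control, Phlda3 from 8.14 to 15.0 and 3.41 to 5.65 FPKM, and Sesn2 from 9.85 to 14.8 and 6.31 to 9.28 FPKM in the same order. Eda2r and Trp53inp1 overlapped between genotypes. Eda2r averaged 1.93 ± 0.71 FPKM in the knockout and 0.50 ± 0.35 FPKM in the control. Trp53inp1 went the other way, at 6.46 ± 2.24 and 9.33 ± 2.29 FPKM in the same order.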

How the data were processed

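The library columns of the deposited table were not named by unit and were taken as FPKM made by the authors, since they have 2 decimals and their sums differ between libraries (877099 to 966648 in the knockout and 770789 to 957520 in the control). The submitters' processing notes list Bowtie 0.12.9, Cufflinks 2.1.1, HTSeq and mm10, without roles. The same deposited table holds the authors' DESeq2 columns: a signal of mean normalized counts, log2 fold changes with standard errors, a score (the test statistic), and p-values, raw and adjusted. The columns name the group and are numbered unlike the titles of the samples, and each was therefore assigned to a group only.

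A count model had been planned for a table of counts, and limma 3.58.1 in R 4.3.3 was used in its place because the values were FPKM. The 6913 genes that reached 10 FPKM in 5 or more libraries were fitted on log2 (FPKM + 1), with a pseudocount of 1, both genotypes, no covariate, and the trend and robust options. Calls have a Benjamini-Hochberg adjusted p under 0.05 over all genes tested. A fold change on this scale understates the change of low genes. The absolute depth of each library is unknown. Relative depth, estimated from steps in low FPKM values, was 0.556 to 0.867 of that of WT3, and only 9.18% to 13.3% of the ratios fell within 5% of the estimate, so whole reads were not recovered. On simulated data with 200 changed genes, 59, 182 and 197 were recovered at log2 changes of 0.5, 1 and 2, with 5, 5 and 11 false calls, for the comparison of knockout with control over 6913 genes. Each simulated gene was drawn independently. In the data 1460 genes were called higher and 2182 lower, and genes moved together within libraries, so these rates may not carry over.

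The factors and all lists were chosen with earlier results of these data known. The lists were the 51 factors by role, further small-subunit factors, further large-subunit factors, the RNA exosome, Myc and p53 genes, sort and stem cell genes, lineage antigens, erythroid genes, globins, granulocyte, macrophage, bone matrix, megakaryocyte and proliferation genes. Values in every library are given for the factor with the largest difference in each role, the 4 most abundant factors, the 3 with the smallest difference, and the nearest neighbour on each side of the threshold, and, outside this rule, for Dhx16, Sbds and Myc. Of the further factors, the 3 largest rises and the falls were named. All 9 p53 targets listed were named, after their values were seen. The share of pairs with ratios apart was counted over every pair of tested genes without a 0. Gene positions came from GENCODE M21, which all 52097 gene identifiers matched, and sequences from RefSeq (GRCm38.p6). Alternatives were other pseudocounts, filters and scalings, limma without trend and robust options, library weights and leaving out each library. Leaving out CKO12 with WT4, removing the length trend, adding marker scores as covariates and taking upper quartiles over the tested genes were added after the data were seen.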

Additional observations from a re-analysis of the deposited data

Results flagged for a closer look

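Among 67 genes in 2 groups, or 134 gene and group pairs, 5 held a library far from the other 4 of its group by Dixon's test, and chance gives about 1 in 20. All 5 were high values in control libraries. Nop10 stood at 149.07 FPKM in WT4, above every knockout library. WT2 was high for Utp15 at 16.58 FPKM, for Wdr43 at 71.15 FPKM and for Bop1 at 53.24 FPKM, and WT2 was also the control library in which 47 of the 51 factors lay above the mean of the other libraries of the group. Ncl stood at 205.32 FPKM in WT3, still below every knockout library. The calls of Nop10, Wdr43, Bop1 and Ncl held when each library was left out in turn.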

How the results depend on the processing

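No paired analysis was possible because the library columns carry other numbers than the sample titles and the knockout and control columns share none. Of the 33 factors called higher, 25 were called in all 10 fits that left out 1 library, and the count ran from 26 to 35. The factors called higher fell in number to 20 with no filter, 19 with equal totals and 19 with the scores of bone matrix and granulocyte genes in the model, while none was called lower under any setting. The median difference of the factors was 0.81 with median-of-ratios factors, 0.91 with upper-quartile factors and 0.82 with the authors' scaling. Under the same 3 scalings the median of all genes turned to 0.25, 0.36 and 0.26, and the genes called were 3053, 3560 and 2991 higher and 816, 582 and 819 lower. The covariates left 954 genes higher, and lower calls numbered 4890 with the filter at 1 FPKM and 4523 with no filter. Of the further assembly factors, equal totals called 24 higher and 5 lower, median-of-ratios factors 75 and 0, upper-quartile factors 78 and 0, the authors' scaling 76 and 1, and the covariates 26 higher. Nle1 turned to 0.34 (limma adjusted p = 0.0430) and 0.44 (0.0106), and Rrp1b to 0.36 (0.0418) and 0.46 (0.0137), under median-of-ratios and upper-quartile factors, where both became higher calls. The cause of these changes was not tested, beyond the shift of all genes that each scaling applies by construction. The fall of Dhx16 kept its direction under every setting run for it. The 9 ratio pairs were rerun only with libraries left out. They were the pairs whose genotypes did not overlap, so leaving out libraries could not turn their direction. Without counts, the precision of factors near 10 FPKM cannot be given.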
